A study of Mus musculus with 16 samples.

Results

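Activated microglia and phagocyte genes are 35 genes chosen for what they do in microglia and macrophages, with no homeostatic, class II or complement genes among them. They were taken by gene symbol from a table of 54532 genes in uninjected retinas and by the same Ensembl gene identifier from a table of 48440 genes in injected retinas, and all 35 were found in both tables. The series measured RNA by bulk sequencing of whole mouse retinas (C57BL6/J, per the series design), so fewer cells of a type and less RNA per cell cannot be told apart in any value below.

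Injected eyes were from wildtype animals aged 18 months. One eye was given 0.36 nmol of the polyunsaturated fatty acid 24:5 into the vitreous, the fellow eye was given vehicle, and retinas were taken 5 days later (n = 3 libraries each, 22066668 to 25609242 counts per library). Every injected library, control included, came from an eye that had been injected. The uninjected groups were 12-month wildtype (n = 3), 12-month mutant carrying an amino acid substitution in Elovl2, an elongase of fatty acids (n = 3), and 18-month wildtype (n = 4). Their libraries held 12810558 to 30519417 reads, recovered from the deposited values. A point mutation is not checked by the RNA level of its gene. Which vehicle and 24:5 retinas share an animal is not in the labels, nor whether libraries are separate animals. The p-values therefore describe library-to-library spread, part of which may be technical.

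Microglia are the resident macrophages of the retina. When neurons are stressed or damaged they take up debris, and a receptor complex of Trem2 with the adaptor Tyrobp helps to switch them from homeostatic genes (P2ry12, Tmem119, Cx3cr1) to a phagocytic programme of lysosomal proteases, Fc and lectin receptors, secreted glycoproteins and the NADPH oxidase. Monocytes that enter the eye turn on many of the same genes, so the genes described here do not separate resident from recruited cells.

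Reference sequence before the start sites of 29 members was taken from RefSeq (GRCm38.p6), all but Tyrobp, Cd14, Tlr7, P2ry6, Itgb2 and Spi1. The 250 bases before the start of 4 members from different roles follow, 5' to 3' on the gene's strand, chosen after their matches were seen, to let the letters behind the counts be read. Windows were searched on both strands for 3 short motifs that do not overlap each other: the PU box core GAGGAA, read by Spi1 (PU.1), the AP-1 site TGANTCA and the E-box CACGTG. Capitals mark the matched letters, with reverse-strand matches written as the reverse complement (TTCCTC for GAGGAA). No annotated exon lies in these windows, and that of Cybb lies inside the longer span deposited for the gene.
Ctss (protease), chr3:95526536-95526785, plus strand: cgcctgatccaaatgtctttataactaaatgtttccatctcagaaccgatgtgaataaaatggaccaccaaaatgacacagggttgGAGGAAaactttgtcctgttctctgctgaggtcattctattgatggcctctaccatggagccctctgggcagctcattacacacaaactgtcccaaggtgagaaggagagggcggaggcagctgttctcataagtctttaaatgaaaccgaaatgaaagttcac
Trem2 (receptor), chr17:48346151-48346400, plus strand: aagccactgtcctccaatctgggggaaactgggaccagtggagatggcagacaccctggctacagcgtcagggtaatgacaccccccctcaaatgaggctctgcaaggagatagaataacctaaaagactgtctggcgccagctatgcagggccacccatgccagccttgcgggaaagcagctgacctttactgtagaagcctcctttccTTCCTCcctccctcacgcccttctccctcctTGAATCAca
Itgam (integrin), chr7:128062390-128062639, plus strand: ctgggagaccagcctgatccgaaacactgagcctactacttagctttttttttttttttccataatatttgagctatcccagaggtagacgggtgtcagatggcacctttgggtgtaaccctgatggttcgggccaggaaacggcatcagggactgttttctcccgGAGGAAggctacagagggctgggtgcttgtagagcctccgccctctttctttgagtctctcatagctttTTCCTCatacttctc
Cybb (oxidase), chrX:9469325-9469574, minus strand: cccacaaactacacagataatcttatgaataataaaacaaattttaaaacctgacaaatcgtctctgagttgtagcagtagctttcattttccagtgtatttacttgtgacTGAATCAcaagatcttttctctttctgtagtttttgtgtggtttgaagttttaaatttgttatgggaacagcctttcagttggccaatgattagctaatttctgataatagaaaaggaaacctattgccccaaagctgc

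Some genes have windows at more than 1 start site, and a gene was counted once if any window held the motif. GAGGAA was found for 13 of the 29 members (44.8%), against 25.9% of 27025 genes. It lies 164 bases before the start of Ctss, 40 before that of Trem2, and 84 and 15 before that of Itgam. TGANTCA was found for 6 members (20.7%, against 7.82% of all genes), among them Trem2, 9 bases before its start, and Cybb, 139 bases before its start. CACGTG was found for 0 of the 29 members, against 6.86% of all genes. A match is a description of the letters and says nothing of binding.

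After 24:5, 34 of the 35 genes had a lower fitted level than after vehicle, and Hcls1 alone was higher. Their median log2 fold change was -1.26, whereas the median over the 17466 genes tested was 0.00, with 49.2% of genes lower. In 25 members every 24:5 library lay below every vehicle library, where 6.77% of all genes tested did so, and in 0 members every 24:5 library lay above (4.82% of all genes). No member passed an adjusted p of 0.05 in edgeR's quasi-likelihood test, which called 2 genes in all (0.0115%). At an unadjusted p under 0.05, edgeR placed 27 members lower (5.16% of all genes) and 0 higher. DESeq2 called 19 members, all lower, where it called 1.38% of all genes lower. The smallest edgeR adjusted p of a member was 0.171, shared by P2rx7, Itgb2 and Themis2. Without the filter on low counts edgeR called 10 members (0.29% of all genes were called lower). Without vehicle replicate 3 it called 11, where it called 0.584% of all genes lower. Leaving out any of the other 5 libraries gave 0.

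**Figure D1:**
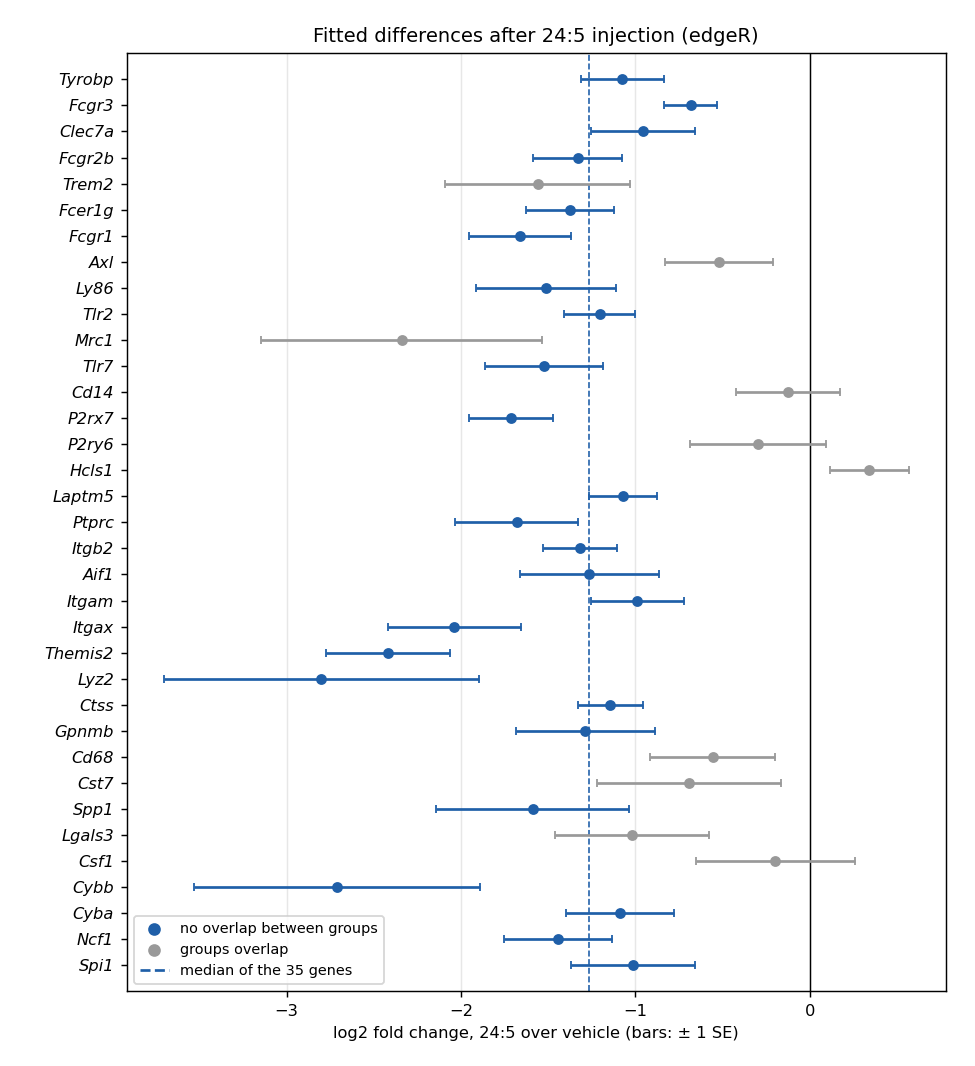
Fitted log2 fold change of each of the 35 genes, 24:5 over vehicle (horizontal axis, edgeR), ordered by role, with bars of 1 standard error. All points except Hcls1 lie left of 0, the dashed line marks the median of -1.26, and the 10 grey genes have groups that overlap.

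Trem2 and the activating Fc receptors signal through an ITAM, a phosphorylated motif that recruits Syk. Trem2, the lipid-sensing receptor (ENSMUSG00000023992, chr17:48346401-48354147, mm10), was at 13.5, 12.6 and 5.06 CPM (counts scaled to library size with TMM) in the libraries of vehicle replicates 1 to 3. With 24:5 it was at 5.93, 2.67 and 1.96 CPM. The groups overlapped, since 24:5 replicate 1 lay above vehicle replicate 3. The means were 10.4 ± 4.65 and 3.52 ± 2.11 CPM (SD, n = 3 each), with a log2 fold change of -1.56 (SE 0.53, edgeR adjusted p = 0.618).

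Tyrobp, the adaptor that carries the signal of Trem2 (ENSMUSG00000030579, chr7:30413760-30417585), was at 25.6, 17.2 and 13.5 CPM with vehicle. In the 24:5 libraries it was at 10.2, 8.59 and 7.94 CPM, so the groups did not overlap. Its mean was 2.11-fold lower (log2 fold change -1.07, SE 0.24, edgeR adjusted p = 0.278). Per length, Tyrobp was more abundant than its partner, at 28.2 RPKM with vehicle and 13.4 with 24:5, where Trem2 was at 2.10 and 0.711 RPKM. Much of that gap comes from the deposited lengths, 667 and 4946 bases. In CPM the vehicle means were 18.8 for Tyrobp and 10.4 for Trem2.

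Fcer1g, the common Fc receptor gamma chain, was at 8.2, 10.4 and 6.12 CPM with vehicle and at 3.74, 3.34 and 2.46 CPM with 24:5. Fcgr1, the high-affinity receptor for IgG (ENSMUSG00000015947, chr3:96282909-96293969), was at 8.9, 10.04 and 5.15 CPM and then at 2.23, 3.22 and 2.17 CPM. Fcgr2b, the inhibitory Fc receptor, was at 12.95, 12.5 and 8.39 CPM and then at 3.38, 5.97 and 4.09 CPM. None of these 3 overlapped between groups, and their log2 fold changes were -1.37 (SE 0.25), -1.66 (SE 0.29) and -1.33 (SE 0.26), with edgeR adjusted p of 0.205, 0.197 and 0.209. Fcgr3, the low-affinity activating receptor, had the smallest difference among the Fc receptors, from 17.2 ± 2.30 to 10.7 ± 1.69 CPM (log2 fold change -0.68), and its groups did not overlap either. Fcgr4, a related receptor outside the list, lay between 1.11 and 4.84 CPM in the 6 libraries. Reads that fit more than 1 Fc receptor gene, members included, could be split by the counting.

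Clec7a, the beta-glucan receptor dectin-1, was at 19.1, 12.7 and 8.92 CPM with vehicle and at 6.24, 5.84 and 8.84 CPM with 24:5. The groups touched without overlapping, since vehicle replicate 3 and 24:5 replicate 3 were almost equal (log2 fold change -0.96, SE 0.30).

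Other signalling genes of the same route were given by a list of 15 genes that are not members. All 15 were lower in the fitted value, 13 of them at an unadjusted p under 0.05 and without overlap, and edgeR called 0 (DESeq2 6). The median log2 fold change of that list was -1.20. Syk, the kinase that binds the ITAM, was at 6.59, 5.81 and 3.15 CPM with vehicle and at 1.95, 2.03 and 1.596 CPM with 24:5 (log2 fold change -1.48). Inpp5d, the inositol phosphatase that restrains it, had a log2 fold change of -0.87, Vav1 one of -1.20 and Btk one of -1.65.

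Among the Toll-like and nucleotide receptors, P2rx7, the ATP-gated channel that triggers the inflammasome (ENSMUSG00000029468, chr5:122643911-122691432), was at 4.19, 4.27 and 3.28 CPM with vehicle. After 24:5 it was at 1.27, 1.35 and 0.942 CPM. The gap between the groups was wider than the range within either one, and the mean was 3.29-fold lower (log2 fold change -1.71, SE 0.24, edgeR adjusted p = 0.171). P2ry6, the receptor for UDP that drives phagocytosis, overlapped widely, at 1.92, 3.26 and 2.31 CPM with vehicle and 1.03, 2.16 and 2.91 CPM with 24:5. Its fitted difference turned sign without 24:5 replicate 1 (from -0.30 to 0.016).

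Tlr2, the receptor for bacterial lipopeptides, was at 6.85, 5.48 and 4.93 CPM with vehicle and at 2.31, 2.79 and 2.37 CPM with 24:5 (log2 fold change -1.21, SE 0.20, edgeR adjusted p = 0.192). Tlr7, the endosomal receptor for RNA, was at 4.80, 4.73 and 3.15 CPM and then at 1.47, 2.07 and 0.860 CPM (log2 fold change -1.52, SE 0.34). Ly86, the MD-1 protein that pairs with the Toll-like protein Cd180, was at 10.3, 12.3 and 5.95 CPM and then at 5.05, 3.004 and 1.92 CPM (log2 fold change -1.51, SE 0.40). All 3 were without overlap. Cd14, the co-receptor for lipopolysaccharide, overlapped, at 4.36, 4.10 and 3.99 CPM against 2.35, 3.64 and 5.44 CPM. Its highest library was 24:5 replicate 3, and its fitted log2 fold change of -0.12 became 0.13 without 24:5 replicate 1.

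Of 13 other Toll-like receptor genes and adaptors, all were lower in the fitted value, 7 at an unadjusted p under 0.05, with a median log2 fold change of -0.90. Tlr1 and Tlr9 had the largest differences among the 4 of these with the smallest p, at -2.37 and -2.04, and the chaperone of endosomal receptors Unc93b1 was at -1.16. edgeR called 0 of the 13 and DESeq2 called 4.

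Mrc1, the mannose receptor of perivascular and alternatively activated macrophages, measured 5.89, 6.36 and 1.06 CPM with vehicle. In 24:5 libraries it was at 1.31, 1.06 and 0.246 CPM, so the groups overlapped and the difference rested on the first pair of vehicle libraries. Axl, a TAM receptor for apoptotic cells that Müller glia and vessels also carry, was at 62.3, 56.3 and 88.3 CPM with vehicle and 29.6, 61.1 and 53.5 CPM with 24:5 (log2 fold change -0.52, SE 0.31, edgeR adjusted p = 0.921). The other TAM receptors and their ligands were close to equal. Mertk had a log2 fold change of 0.04, its bridging ligand Gas6 one of -0.04, and of the 5 genes in that list 3 were lower, none without overlap.

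Surface, integrin and cytoskeletal genes of immune cells lay lower with 24:5, except for Hcls1. Ptprc, the CD45 phosphatase, was at 21.4, 21.0 and 10.1 CPM with vehicle and 6.84, 5.84 and 3.68 CPM with 24:5 (log2 fold change -1.68, SE 0.35, edgeR adjusted p = 0.278). Itgax, the integrin CD11c that marks damage-associated microglia and dendritic cells (ENSMUSG00000030789, chr7:128129547-128150657), was at 6.24, 4.27 and 2.48 CPM and then at 1.31, 1.06 and 0.778 CPM. Its mean was 4.13-fold lower (log2 fold change -2.04, SE 0.38, edgeR adjusted p = 0.207), and the groups did not overlap. Itgb2, the shared beta chain of these integrins (ENSMUSG00000000290, chr10:77530252-77565708), was at 14.4, 13.8 and 10.03 CPM and then at 6.20, 5.12 and 4.01 CPM (log2 fold change -1.32, SE 0.21, edgeR adjusted p = 0.171). Itgam, the alpha chain CD11b, had means of 4.90 ± 1.203 and 2.46 ± 0.624 CPM without overlap.

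Aif1, the actin-binding IBA1 used to stain microglia, was at 5.76, 5.86 and 3.37 CPM with vehicle and at 3.30, 1.73 and 1.19 CPM with 24:5. The lowest vehicle library lay just above the highest 24:5 library, and the log2 fold change was -1.26 (SE 0.40, edgeR adjusted p = 0.491). Laptm5, a lysosomal membrane protein of immune cells, was at 21.2, 20.6 and 12.96 CPM and then at 9.11, 9.05 and 7.90 CPM (log2 fold change -1.07, SE 0.19, edgeR adjusted p = 0.205).

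Themis2, an adaptor of macrophage and B cell signalling (ENSMUSG00000037731, chr4:132781843-132796387), was at 2.75, 3.10 and 1.86 CPM with vehicle and at 0.676, 0.381 and 0.368 CPM with 24:5. Its mean was 5.41-fold lower without overlap (log2 fold change -2.42, SE 0.35, edgeR adjusted p = 0.171). It is 1 of 3 members, with Mrc1 and Cst7, that passed the filter on low counts only through vehicle libraries. Among the 32 others, 24 were lower without overlap and the median log2 fold change was -1.24.

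Hcls1, a cortactin-like regulator of actin in blood cells (ENSMUSG00000022831, chr16:36934983-36963212), was the exception, at 18.4, 27.3 and 16.0 CPM with vehicle and 29.7, 27.8 and 20.8 CPM with 24:5. The groups overlapped (20.6 ± 5.93 against 26.1 ± 4.70 CPM, SD, n = 3 each; log2 fold change 0.34, SE 0.22, edgeR adjusted p = 0.949). Its vehicle level per length was 8.15 RPKM, whereas that of Ptprc, which blood cells also carry, was 0.956 RPKM. With vehicle that gap rests largely on the deposited lengths, 2525 and 18313 bases, since the means in CPM were 20.6 and 17.5. In uninjected 18-month wildtype replicate 1 the gap was wide in reads too, at 637 for Hcls1 and 22 for Ptprc. Which cells the Hcls1 RNA came from was not tested.

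**Figure D2:**
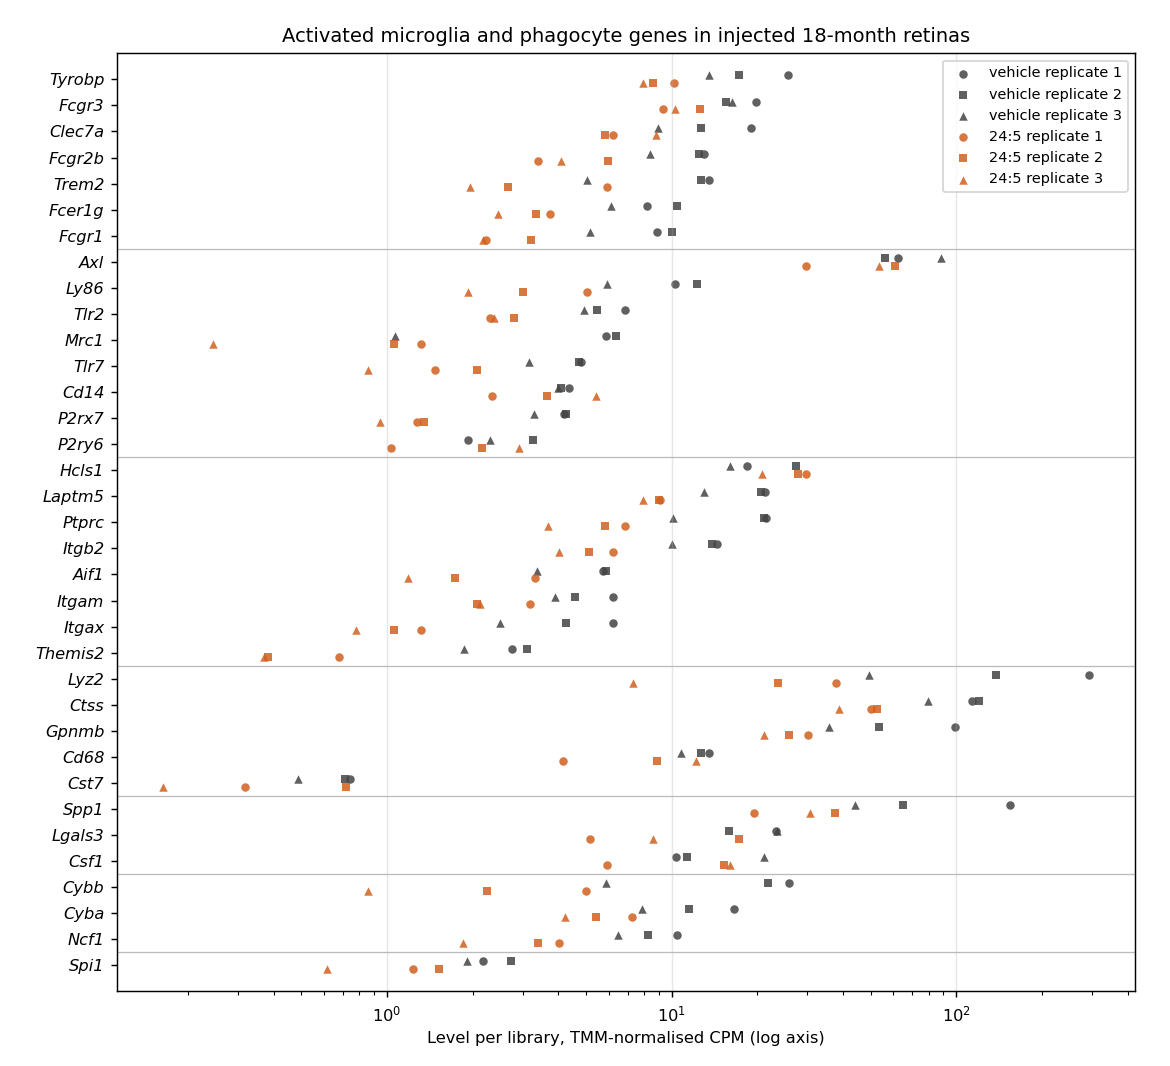
Level of each of the 35 genes in the 6 injected libraries, in CPM on a log axis, one point per library, with vehicle and 24:5 in different colours and symbols for replicates. Lyz2, Cybb and Mrc1 spread widest, vehicle replicate 3 is the lowest vehicle library for 30 genes, and 24:5 replicate 3 is the lowest 24:5 library for 23.

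Among lysosomal and debris-handling genes, Lyz2 and Ctss had the highest mean CPM of all members with vehicle. Ctss, the cathepsin that cleaves the invariant chain (ENSMUSG00000038642, chr3:95526786-95556403), was at 114, 120.2 and 79.4 CPM with vehicle and at 50.1, 52.8 and 38.8 CPM with 24:5. Every vehicle library lay well above every 24:5 library. The means were 104 ± 21.95 and 47.3 ± 7.43 CPM (SD, n = 3 each), with a log2 fold change of -1.14 (SE 0.18, edgeR adjusted p = 0.197) and a DESeq2 adjusted p of 4.82e-07, the smallest of any member in that test.

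Lyz2, lysozyme M of monocytes and macrophages (ENSMUSG00000069516, chr10:117277331-117282321), had the widest spread, at 292, 138 and 49.5 CPM with vehicle and 37.7, 23.7 and 7.33 CPM with 24:5. All vehicle libraries lay above all 24:5 libraries, but the vehicle libraries differed several-fold among themselves. The log2 fold change was -2.80 (SE 0.90, edgeR adjusted p = 0.632), and it was -2.04 without vehicle replicate 1 and -3.37 without 24:5 replicate 1. Its near-identical neighbour Lyz1, with which reads can be confused, lay between 0 and 1.05 CPM.

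Gpnmb, a lysosomal glycoprotein of lipid-laden phagocytes, was at 99.1, 53.3 and 35.8 CPM with vehicle and 30.0, 25.9 and 21.2 CPM with 24:5 (log2 fold change -1.29, SE 0.40, edgeR adjusted p = 0.586). Vehicle replicate 1 lay well above the other vehicle libraries, and the groups did not overlap. Cd68, the macrosialin of phagocyte lysosomes, overlapped, at 13.5, 12.7 and 10.8 CPM against 4.14, 8.89 and 12.2 CPM. Cst7, a cathepsin inhibitor, was low throughout, between 0.164 and 0.741 CPM, and its groups overlapped.

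A list of 14 other genes of damage-associated microglia gave 13 that were tested. All 13 were lower in the fitted value, 9 at an unadjusted p under 0.05, and the median log2 fold change was -0.45. edgeR called 0 of them and DESeq2 called 6. Apoe, the lipid carrier, which Müller glia also make, was at 911, 805 and 657 CPM with vehicle and 515, 503 and 353 CPM with 24:5 (log2 fold change -0.79). Capg, an actin-capping protein of macrophages, had a log2 fold change of -1.12, the surface glycoprotein Cd52 one of -1.22 and cathepsin Z one of -0.52.

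Secreted products followed 24:5 less evenly. Spp1, osteopontin, was at 155, 65.0 and 44.0 CPM with vehicle and 19.5, 37.4 and 30.7 CPM with 24:5, without overlap (log2 fold change -1.59, SE 0.56, edgeR adjusted p = 0.679). Without vehicle replicate 1 its log2 fold change was -0.91. Lgals3, galectin-3, was at 23.2, 15.9 and 23.5 CPM and then at 5.17, 17.2 and 8.60 CPM, and its groups overlapped through 24:5 replicate 2 (log2 fold change -1.02, SE 0.44, edgeR adjusted p = 0.803). Csf1, the growth factor that keeps microglia alive, was at 10.3, 11.3 and 21.1 CPM and then at 5.93, 15.3 and 16.0 CPM. Its log2 fold change was -0.20 (SE 0.46, edgeR adjusted p = 0.997), and it became 0.20 without vehicle replicate 3 and 0.13 without 24:5 replicate 1.

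The receptor for Csf1, Csf1r, was at 60.3, 55.7 and 36.7 CPM with vehicle and 34.9, 26.9 and 21.1 CPM with 24:5, without overlap (log2 fold change -0.88). Il34, its second ligand, which neurons make, was at 5.86 to 7.81 CPM with vehicle and 6.09 to 6.60 CPM with 24:5. All 5 genes of that list were lower in the fitted value, with a median log2 fold change of -0.88.

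The phagocyte NADPH oxidase makes superoxide from a membrane pair, Cybb (gp91phox) and Cyba (p22phox), joined by cytosolic subunits such as Ncf1 (p47phox). Cybb (ENSMUSG00000015340, chrX:9435252-9487771) was at 25.7, 21.8 and 5.86 CPM with vehicle and at 5.01, 2.24 and 0.860 CPM with 24:5. The groups did not overlap, although vehicle replicate 3 lay close to 24:5 replicate 1. The means were 17.8 ± 10.5 and 2.70 ± 2.11 CPM (log2 fold change -2.71, SE 0.82, edgeR adjusted p = 0.563).

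Cyba was at 16.6, 11.5 and 7.90 CPM with vehicle and at 7.28, 5.42 and 4.22 CPM with 24:5 (log2 fold change -1.09, SE 0.31). Ncf1 was at 10.4, 8.28 and 6.48 CPM and then at 4.02, 3.38 and 1.84 CPM (log2 fold change -1.44, SE 0.31, edgeR adjusted p = 0.258). All 3 subunits were without overlap. Ncf1 overlaps Gtf2ird2 on the opposite strand, which had a mean of 22.3 CPM, and the strand setting of the counting is not given in the sources used here, so its value is uncertain. Of 5 further oxidase genes, all were lower in the fitted value and 4 were without overlap. Cyth4 had a log2 fold change of -1.26, Rac2 one of -1.75 and Ncf4 one of -0.999.

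Spi1, the transcription factor PU.1 that macrophages need (ENSMUSG00000002111, chr2:91082390-91115756), was at 2.18, 2.72 and 1.91 CPM with vehicle and 1.23, 1.52 and 0.614 CPM with 24:5. The groups did not overlap and the mean was 2.02-fold lower (log2 fold change -1.01, SE 0.35, edgeR adjusted p = 0.587). Of 10 other myeloid transcription factors, 8 were tested and 7 were lower, with a median log2 fold change of -0.38. Cebpa was at -0.85 and Irf5 at -0.78, both without overlap. Irf8 followed another order, at 8.42, 9.79 and 19.4 CPM with vehicle and 3.62, 13.9 and 13.3 CPM with 24:5.

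Homeostatic microglia genes were lower too, by less. Of 14 such genes, 13 were lower in the fitted value, 4 at an unadjusted p under 0.05 and 3 without overlap, and their median log2 fold change was -0.62. P2ry12 was at 5.23, 6.40 and 3.59 CPM with vehicle and 6.56, 2.12 and 2.09 CPM with 24:5, Cx3cr1 at 24.9, 21.7 and 15.7 CPM and then 19.1, 10.2 and 2.54 CPM. Tmem119 was at 7.63, 8.07 and 5.77 CPM and then 5.97, 5.20 and 3.81 CPM. All 3 overlapped. In 24:5 replicate 1, P2ry12 lay above every vehicle library. Cx3cr1 and Tmem119 lay below vehicle replicates 1 and 2 there, but above vehicle replicate 3. In the same library 34 of the 35 activation genes lay below both vehicle replicates 1 and 2, and 32 lay below vehicle replicate 3.

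Set against the summed level of the 14 homeostatic genes in the same library, 32 members were lower with 24:5, 23 of them without overlap (2.18% of all genes), with a median log2 difference of -0.85. The median over 17439 genes on that ratio was 0.35. Bin1, which neurons also express, held 35.5% to 64.7% of that sum. It was the 1 homeostatic gene that was higher with 24:5, at 51.8 RPKM with vehicle and 56.1 RPKM with 24:5. Its groups did not overlap (4.82% of all genes were higher without overlap), so the sum fell less than its other genes did. Set instead against the sum of the 5 defining markers P2ry12, Tmem119, Cx3cr1, Sall1 and Siglech, a choice made after the data were seen, 28 members were lower, 9 without overlap (0.469% of all genes), and the median was -0.31, where that over all genes was 0.89. The 9 were Tlr7, Ly86, P2rx7, Aif1, Itgax, Themis2, Lyz2, Cybb and Ncf1. Hcls1 was higher against either sum without overlap, as were 20.1% of all genes against the homeostatic sum and 10.7% against the 5 markers.

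Markers of other cells moved with the members as well. The summed level of 8 monocyte genes was 20.1 to 60.5 CPM with vehicle and 5.24 to 10.2 CPM with 24:5. All 4 of these that were tested were lower, their median being -2.04 on the log2 scale, and DESeq2 called 3. Ccr2, the chemokine receptor of inflammatory monocytes, was at 19.8, 19.6 and 9.54 CPM with vehicle and 2.47, 3.47 and 0.614 CPM with 24:5 (log2 fold change -2.90, SE 0.60, edgeR adjusted p = 0.300). Vcan and S100a4 were at -2.37 and -1.15. The defining genes Ly6c2 and Chil3 stayed under 2 CPM and were at 0 in 24:5 replicate 1.

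Of 8 perivascular macrophage genes 4 were tested, with Ms4a7 at -2.99 and F13a1 at -2.55, while Lyve1 was level at 7.41 to 8.16 CPM with vehicle and 6.67 to 8.04 CPM with 24:5. Ms4a7 and F13a1 were scarce with 24:5, at 0.116 and 0.118 RPKM. Genes this scarce may have passed the filter on low counts only through vehicle libraries, which favours lower values. Their summed level was 10.7 to 26.6 CPM against 7.33 to 10.5 CPM, and Cd163 and Pf4 were at 0 in 1 or more libraries. The 8 neutrophil genes summed to 0.586 to 1.51 CPM with vehicle and 0.358 to 0.889 CPM with 24:5. Camp and Ngp were at 0 in all 6 libraries and S100a8 was at most 0.666 CPM. Of 11 T and NK cell genes, summing to 2.68 to 4.97 and 1.02 to 2.98 CPM, only Lck and Cd8a could be tested, and Cd3e was at 0 in 4 libraries. The 6 B cell genes summed to 11.1 to 16.2 and 10.9 to 13.6 CPM, nearly all of it Jchain. The part of the monocyte and perivascular genes in the result was not tested.

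**Figure D3:**
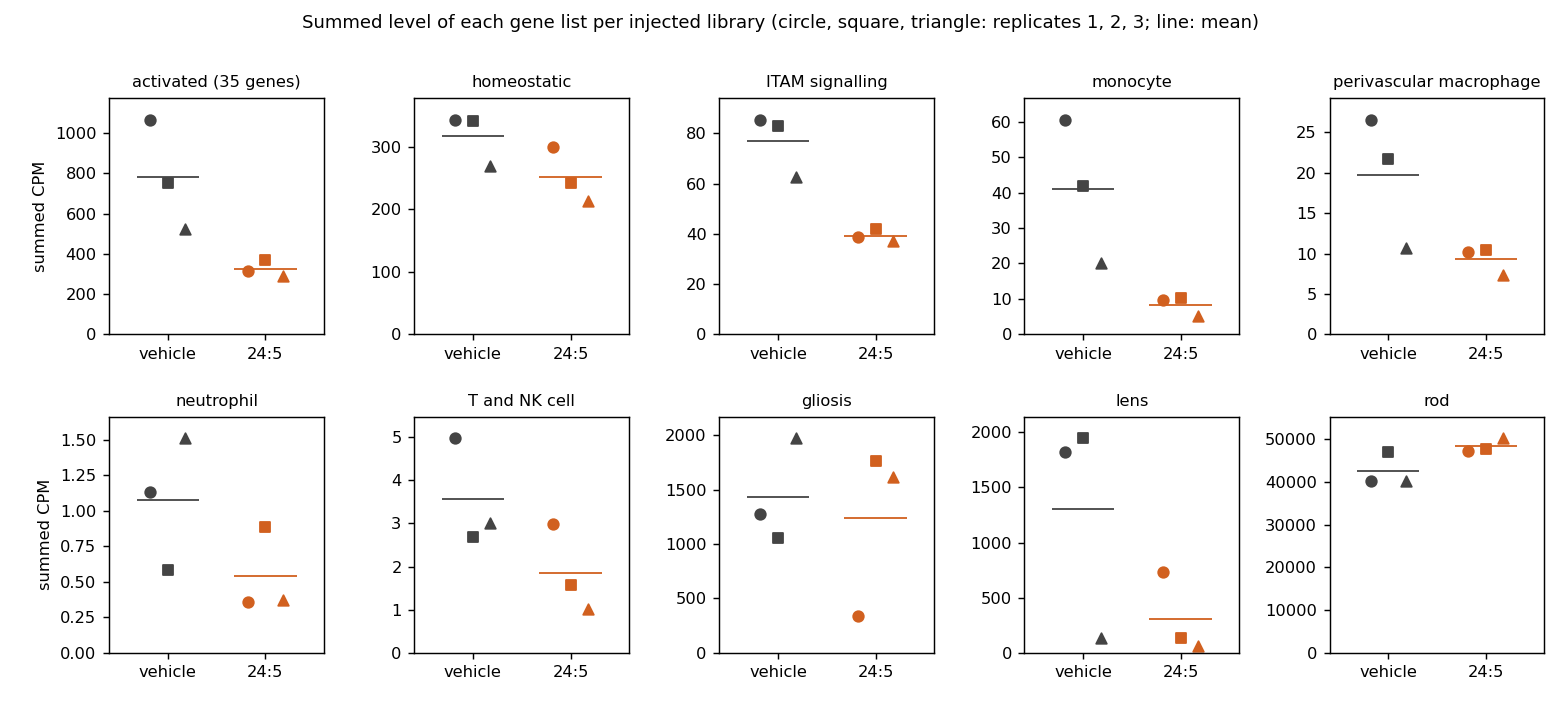
Summed CPM of the 35 activation genes and of 9 other lists in each injected library (points, replicates by symbol) with the group mean as a line, each panel on its own axis from 0. The activation, ITAM and monocyte sums do not overlap between groups, the homeostatic, gliosis and lens sums do.

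The injected libraries also differed in ways that the treatment labels do not give. Vehicle replicates 1 and 2 and 24:5 replicate 1 held more lens RNA (731.5 to 1944 summed CPM over 12 lens genes) than the other 3 libraries (61.9 to 139.1), and the crystallin Cryaa was at 784, 963 and 63.4 CPM with vehicle and 307, 64.2 and 22.6 CPM with 24:5. An interferon signalling gene ran the other way, with Irf9 at 61.4, 56.7 and 228 CPM and then 21.95, 205 and 158 CPM. The gliosis list, with Gfap, summed to 1057 to 1972 CPM with vehicle, to 338 CPM in 24:5 replicate 1 and to 1616 and 1761 CPM in 24:5 replicates 3 and 2.

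Within the 3 libraries rich in lens RNA, 34 members were lower in 24:5 replicate 1 than the mean of vehicle replicates 1 and 2, with a median log2 difference of -1.32 (-0.01 over all genes tested). Within the other 3, 32 members were lower in 24:5 replicates 2 and 3 than in vehicle replicate 3, with a median of -0.84 (0.00 over all genes). These comparisons have 1 library on one side and no test. Across the split, 32 members were higher in vehicle replicate 3 than in 24:5 replicate 1. The part of lens RNA in the members' differences was not tested. With the split as a term in edgeR, 20 members were called, all lower, among them Trem2, Axl, Csf1 and Cybb (1.44% of all genes were called lower). The split was drawn from these same data, so these calls are no independent evidence. Without the term edgeR called 0 members, and Csf1 turned sign when single libraries were left out.

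Rod genes were slightly higher with 24:5, with 1 of 10 lower and a median log2 difference of 0.15. Of the 10, 2 had an unadjusted edgeR p under 0.05 and 0 were without overlap. Their summed level did not overlap, at 40174 to 47042 CPM with vehicle and 47218 to 50141 CPM with 24:5. Of 9 endothelial genes 8 were lower, 3 without overlap, and their log2 fold changes had a median of -0.24. Of 10 Müller glia genes 7 were lower, 3 without overlap, with a median of -0.25. Neither list had a gene called by edgeR, each had 3 at an unadjusted p under 0.05, and DESeq2 called 1 in each. Their part in the members' differences was not tested. The endothelial genes included Vwf, the clotting factor of endothelium, at 54.0, 47.6 and 63.5 CPM and then 27.3, 30.5 and 23.5 CPM (log2 fold change -1.02), while Pecam1 was at -0.18 and overlapped.

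In uninjected retinas the members were scarce. FPKM values (fragments per kilobase, scaled to library size) averaged 1 or more over the 10 libraries for 15 of the 35 genes, as for 13786 genes in all, and 17 members stayed under 1 FPKM in every library. Hcls1, Ctss and Spp1 were highest, with medians of 17.5, 12.7 and 11.8 FPKM. Itgax was listed at 0 in 3 libraries and did not exceed 0.112 FPKM, and Mrc1 was listed at 0 in 3 others and did not exceed 0.238 FPKM. The 2 comparisons of age and of genotype share the 12-month wildtype libraries, so their values are not independent.

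Between 12 and 18 months, limma called 0 of the 15 members (0.0% of all genes tested). Of these 15, 10 were higher and 5 lower at 18 months, with a median difference of 0.11 on the log2(FPKM + 1) scale (0.00 over all genes). That median became -0.02 without the 18-month replicate 1. At an unadjusted p under 0.05 there was 1 member (3.65% of all genes), and DESeq2 and edgeR on recovered reads also called 0 members (edgeR called 0.00571% of all genes).

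Hcls1 was the member with the smallest p. It was at 25.3, 20.4 and 18.4 FPKM at 12 months and 17.1, 15.8, 15.8 and 15.7 FPKM at 18 months, and it was the 1 member whose groups did not overlap (2.22% of all genes were lower without overlap). The means were 21.4 ± 3.57 (SD, n = 3) and 16.1 ± 0.688 FPKM (SD, n = 4), a difference of -0.38 (SE 0.10, limma adjusted p = 1.0). Spp1 was at 9.67, 9.06 and 11.9 FPKM at 12 months and 14.1, 12.2, 10.8 and 11.7 FPKM at 18 months, which overlap (difference 0.24, SE 0.12). Cd14 was at 1.24, 1.26 and 1.63 FPKM and then 2.55, 1.19, 1.90 and 1.74 FPKM, which overlap too (0.24, SE 0.17).

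In the Elovl2 mutants at 12 months, limma again called 0 of the 15 members (0.0% of genes). Of them 12 were higher and 3 lower than in wildtype, with a median of 0.11 (-0.01 over all genes), and none was without overlap (3.05% of all genes were higher and 2.92% lower without overlap). The median became -0.05 without wildtype replicate 2 and -0.04 without mutant replicate 2. Spp1 was at 11.1, 14.1 and 13.2 FPKM in mutants (difference 0.30, SE 0.12), the 1 member at an unadjusted p under 0.05 (2.19% of genes). Its groups overlapped, since wildtype replicate 3 lay above mutant replicate 1. Tyrobp was at 5.70, 2.13 and 2.85 FPKM in wildtype and 3.02, 6.84 and 6.46 FPKM in mutants (0.51, SE 0.36, limma adjusted p = 1.0). Hcls1 was at 17.0, 20.2 and 17.8 FPKM in mutants (-0.20, SE 0.11).

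Wildtype at 18 months against mutants at 12 months, the test of the difference between both effects, gave 0 members called (0.0%), 5 higher and 10 lower, with 0 at an unadjusted p under 0.05 (2.14% of genes). The smallest p belonged to Hcls1 (-0.17, SE 0.10), Cd14 (0.28, SE 0.17) and Gpnmb (-0.37, SE 0.27, limma adjusted p = 1.0). Gpnmb was at 3.40, 1.48 and 1.99 FPKM in wildtype at 12 months, 1.69, 4.79 and 2.77 in mutants and 2.62, 1.66, 1.62 and 2.23 at 18 months.

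Library by library, the same retinas stood high for many members. Ctss was at 16.5, 8.90 and 12.4 FPKM in wildtype at 12 months, 9.15, 19.7 and 14.2 in mutants and 13.1, 11.1, 11.4 and 13.8 at 18 months. Cd68 was at 2.41, 1.09 and 0.492 FPKM, then 0.565, 3.63 and 2.02, then 2.0, 0.831, 1.34 and 1.23. In both genes wildtype replicate 1 and mutant replicate 2 were the highest libraries of their groups.

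Trem2 was at 1.17, 0.380 and 0.732 FPKM in wildtype at 12 months, 0.598, 1.33 and 1.11 in mutants and 0.797, 0.664, 0.479 and 0.880 at 18 months. It had a mean under 1 FPKM and was not tested by limma, like Aif1, Cybb and Spi1. Aif1 lay between 0.144 and 0.744 FPKM, Cybb between 0.0510 and 0.214 FPKM, and Spi1 between 0.0879 and 0.474 FPKM, each with all groups overlapping. Lgals3 (0.604 to 1.99 FPKM), Axl (2.67 to 3.96 FPKM) and Csf1 (0.805 to 1.55 FPKM) passed the filter and overlapped between groups as well.

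The highest library was mutant replicate 2 for 12 members, 12-month wildtype replicate 1 for 11 and 18-month replicate 1 for 6. For 13 members the lowest was 12-month wildtype replicate 2. Over the 32 members above 0 in all libraries, the median log2 distance to each gene's own median was 0.42, -0.51 and -0.17 in 12-month wildtype, -0.42, 0.39 and 0.30 in mutants and 0.28, -0.15, -0.13 and 0.09 at 18 months. Mutant replicate 2 and wildtype replicate 1 were also the most deeply sequenced, with 30519417 and 27082456 recovered reads, and the gliosis list summed to 76.2 FPKM in that wildtype library and to 23.8 to 35.6 FPKM in the other 9. The part of depth and gliosis in the pattern was not tested.

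**Figure D4:**
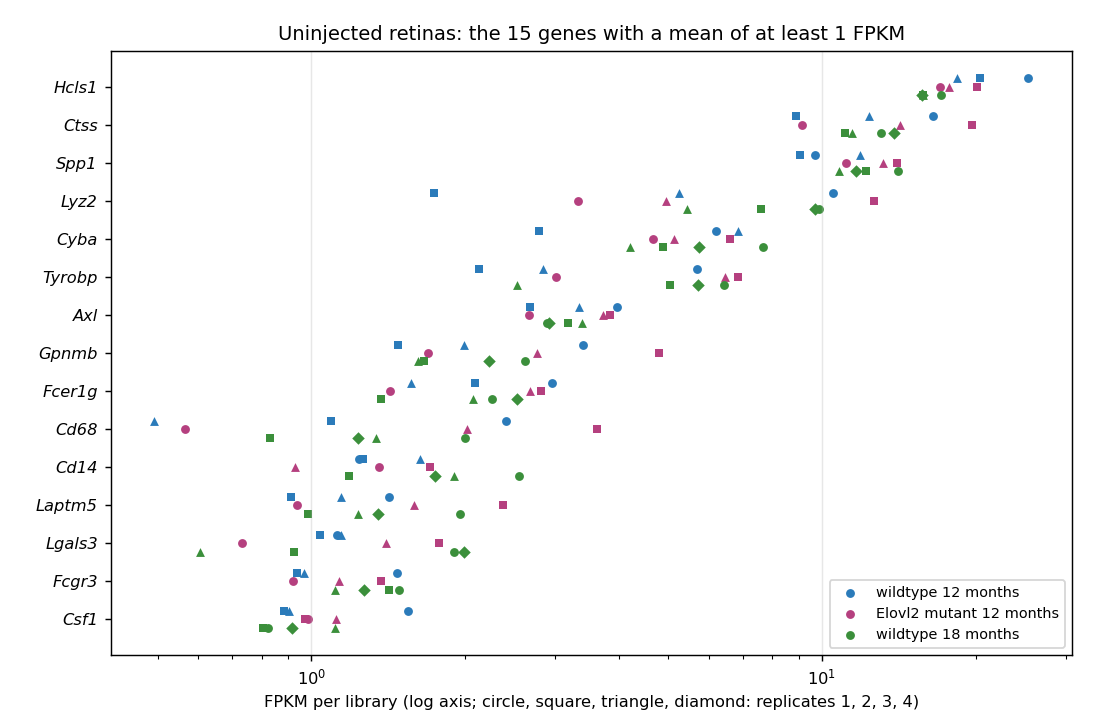
FPKM (log axis) of the 15 members with a mean of at least 1 in the 10 uninjected libraries, one point per library, coloured as wildtype 12 months, Elovl2 mutant 12 months and wildtype 18 months. The groups overlap in each gene except for Hcls1 between 12-month and 18-month wildtype, and wildtype replicate 1 and mutant replicate 2 are often the highest of their group.

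The tables of injected and uninjected retinas were normalised separately, so levels across them are a description without a test, and injection cannot be told apart from library preparation or sequencing run. Vehicle-injected retinas held a median of 6.23 times the per-length level of uninjected wildtype retinas of the same age over the 35 members (2.72 times with 24:5), and 4.60 times over the 15 members that passed the filter. The median over 12861 genes was 0.934, with 6.34% of them above 2-fold. Above 2-fold lay 32 members with vehicle and 23 with 24:5. Cybb was at 3.06 RPKM with vehicle, 0.466 with 24:5 and 0.0886 FPKM uninjected, Lyz2 at 121, 17.4 and 8.15, and Ctss at 76.9, 34.8 and 12.4. Hcls1 was lower in injected retinas, at 8.15 and 10.3 RPKM against 16.1 FPKM. Homeostatic genes had a median ratio of 1.98 with vehicle and 1.25 with 24:5.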

How the data were processed

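RNA-seq of whole mouse retinas was analysed from 2 tables that the authors deposited, one of FPKM values (10 uninjected libraries) and one of raw read counts per gene (6 injected libraries). The submitters' processing notes name HISAT2 2.2.1, featureCounts 2.0.6, DESeq2 1.42.0 and the mm10 build, with no role or order. Per the labels' protocols, libraries were poly(A)-selected and strand-marking. Which annotation release was counted, and with what strand setting, is not given in the sources used here.

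Counts were tested with edgeR 4.0.16 in R 4.3.3 (quasi-likelihood, robust, TMM, filterByExpr, 17466 genes). FPKM values were tested with limma 3.58.1 (trend, robust) on log2(FPKM + 1), mean FPKM of at least 1, with the 3 uninjected groups in 1 fit. That scale understates changes of low genes. All tests were two-sided, and p-values were adjusted by Benjamini and Hochberg over all genes tested, with a threshold of 0.05. FPKM times the deposited gene length came out as whole reads (100.0% of values within 0.02), and these were used in alternative edgeR and DESeq2 1.42.0 tests. RPKM of injected libraries used the deposited lengths. Standard errors in edgeR were derived from the F statistic. Symbols and mm10 coordinates came from the FPKM table. The scripts were tested on simulated data.

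The members and all gene lists were chosen with earlier results of these data known. All 35 members are named for the injected comparison. In the uninjected ones a fixed set of 10 and the 3 with the smallest p are given, and of each other list up to 4 genes with the smallest p and a fixed set. Bin1, Sall1, Siglech, Fcrls, Lcn2, Timp1, Irf9, Lyz1, Fcgr4 and other members given beside a count were chosen after their values were seen. Some genes that this rule takes are not reported here. A longer interferon response motif was also searched and is not reported here. Alternatives were other normalisations, filters, pseudocounts and tools, a replicate block, a term for libraries that stood apart in an earlier analysis of these data, and leaving out each library.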

Additional observations from a re-analysis of the deposited data

Results flagged for a closer look

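In the 18-month wildtype group Hcls1 was at 17.1 FPKM in replicate 1, above the other 3 libraries, which lay between 15.7 and 15.8 FPKM. The gap to the nearest library was 0.924 of the whole range of the group. Chance alone can set a library apart in this way, and many groups of values were examined. How often it does so was not worked out. The same library was still below all 3 libraries of wildtype retinas at 12 months.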

How the results depend on the processing

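Without any filter on low counts edgeR called 85 genes after 24:5, DESeq2 called 244, and a term for the libraries that stood apart called 300, of which 10, 19 and 20 were members. Leaving out each library gave 0 to 105 genes and 0 to 11 members, 31 to 34 members lower, and a median of -1.46 to -1.07. It gave 25 to 28 members lower without overlap. Groups without overlap stay so when a library is left out, so this count could not fall below 25 and tests nothing. CPM without TMM left 25 without overlap. Relative to the 5 defining markers in place of the homeostatic sum, 9 members were lower without overlap. Leaving out each library gave -0.47 to 0.13 for Cd14, -0.65 to 0.016 for P2ry6 and -0.42 to 0.20 for Csf1, which turned sign. Of 385 results of a member under an alternative, 306 kept direction and side of the threshold, 75 newly passed it and 4 turned sign.

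With the replicate number as a block, edgeR called 88 genes and 15 members (0.498% of all genes were called lower). The numbers were not taken as pairs, since the deviations of same-numbered libraries correlated at 0.45, -0.26 and 0.49, and not every library correlated best with its own number.

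In the uninjected retinas no alternative called a member. For age, genes called were 4 without a filter, 1 with a mean of at least 0.1 FPKM, 1 with edgeR and 13 with DESeq2 on recovered reads, and 1 with the split as a term. For genotype they were 4 and 1 under the same filters. For 18-month wildtype against mutants they were 1 without a filter, 11 with DESeq2 on recovered reads, 2 with only the groups compared and 1 with the split. Leaving out each library gave 0 in all 3 comparisons. The cause of these differences was not tested. Low members limit the precision, since Cst7 and Mrc1 rest on few counts in 24:5 libraries and 20 members fall under the FPKM filter.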
